A study of Drosophila melanogaster with 3 samples.

Results

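The genes ush, cbt, CG11050 and Lk6 hold or adjoin the strongest Myc peaks found away from promoters in Drosophila melanogaster embryos. They are 4 of 13945 protein-coding genes on the main chromosome arms. The genes were chosen by the signal of their peaks, so that signal is described and not tested. cbt lies inside ush on the opposite strand and shares its strongest peak, which leaves 3 distinct strongest peaks in 3 regions. These regions, each gene body with 10 kb on either side, held 22 of the 4371 peaks in the thresholded peak list. Of those 22 peaks, 11 lay in introns, 8 in promoters, 3 in untranslated exons and 0 between genes. Of all 4371, 904 lay in introns, 2991 in promoters, 64 in exons and 412 between genes. The 3 strongest peaks, chosen for lying outside promoters, are among the 11, so the choice of genes in part fixed these counts.

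Genomic sites occupied by Myc were mapped by ChIP-seq, in which chromatin bound by a protein is immunoprecipitated and sequenced, in mixed-sex whole embryos 0 to 16 h old. The embryos came from 1 stable transgenic line carrying the fly Myc protein, encoded by dm, fused at its C terminus to green fluorescent protein. The 3 biological replicates form 1 group, so there is no untagged, mutant or treated group to set against it. Chromatin was precipitated with an antibody against the tag, although the antibody field of the labels names dm. The promoter that drives the transgene is not given in the sources used here, and whole embryos mix all tissues over the collection time, so signal cannot be assigned to a cell type.

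Myc is a basic helix-loop-helix transcription factor that pairs with Max, binds E-box sequences, of which CACGTG is the canonical form, and drives growth and ribosome production in flies. ush (u-shaped) encodes a zinc-finger cofactor of the FOG family that binds the GATA factors Pannier and Serpent and acts in dorsal closure, heart and blood cell development. cbt (cabut) encodes a zinc-finger transcription factor related to the mammalian TIEG factors, which acts in dorsal closure and in the response to sugar downstream of Mondo and its partner bigmax. Lk6 encodes a kinase related to mammalian Mnk that phosphorylates the cap-binding protein eIF4E. No role is given here for CG11050.

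The genomic sequence at the 3 strongest peaks is shown first. None of the DNA words searched lay within 50 bp of their summits, which also held for 41.5% of all 4371 peaks. A summit is the position of the highest point of a peak as deposited. Sequences are the plus strand of the RefSeq genome of the Release 6 assembly (dm6). Capitals mark matches to the words searched, listed further on. The windows are chr2L:480932-481182 for ush and cbt, chr3R:11760923-11761173 for Lk6, and chr2L:479954-480204 for the second strongest peak of the ush region, upstream of the cbt start, which is shown because it carries CACGTG. In these windows the summit is base 126. For CG11050 the whole intron that holds the summit is shown, chr2L:6612641-6612780, and the summit is its base 67.
ush and cbt, strongest peak: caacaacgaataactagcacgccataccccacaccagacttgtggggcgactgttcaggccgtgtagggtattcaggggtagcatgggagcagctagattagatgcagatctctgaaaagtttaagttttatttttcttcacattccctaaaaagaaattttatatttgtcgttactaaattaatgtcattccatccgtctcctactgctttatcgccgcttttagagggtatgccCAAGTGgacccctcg
CG11050, strongest peak: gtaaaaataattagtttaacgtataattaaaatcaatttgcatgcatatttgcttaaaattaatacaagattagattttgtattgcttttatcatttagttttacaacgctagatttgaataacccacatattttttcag
Lk6, strongest peak: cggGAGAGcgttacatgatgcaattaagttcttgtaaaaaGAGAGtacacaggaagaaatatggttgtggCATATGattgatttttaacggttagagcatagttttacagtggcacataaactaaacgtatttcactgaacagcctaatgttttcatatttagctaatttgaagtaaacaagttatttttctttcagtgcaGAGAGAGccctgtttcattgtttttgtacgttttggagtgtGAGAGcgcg
cbt, upstream peak: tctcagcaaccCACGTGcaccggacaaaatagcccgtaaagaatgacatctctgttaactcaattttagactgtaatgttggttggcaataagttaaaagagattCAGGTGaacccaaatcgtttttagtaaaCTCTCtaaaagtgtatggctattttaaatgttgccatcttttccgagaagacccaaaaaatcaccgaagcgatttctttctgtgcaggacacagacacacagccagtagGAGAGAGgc

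The strongest peak of ush and cbt was the highest of the whole list. The list used here was thresholded by the irreproducible discovery rate (IDR), which keeps peaks that rank alike between replicates, and signal is the peak caller's own score. The peak covered 2L 480876 to 481299 with its summit at 481057, and its IDR signal was 2067, against a median of 175.9 over all 4371 peaks. In replicates 1, 2 and 3 its signal was 641.3, 498.0 and 928.2, which ranked 5, 4 and 2 in the replicates' own lists. Replicate 3 was the highest and replicate 2 the lowest. Divided by the median signal of the IDR peaks found in the same replicate (66.32, 53.18 and 64.48 in replicates 1, 2 and 3), the relative signal was 9.67, 9.36 and 14.4, or 11.1 ± 2.82 (SD, n = 3).

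The summit lay 1369 bp upstream of the single cbt start and 4837 bp downstream of the outermost ush start. It therefore stood upstream of cbt and at the same time inside ush. In the annotation it fell in intron 1 of 2 of the 5 ush transcripts, in introns of 49060 bp (2L 476332 to 525391) and 13185 bp (2L 476332 to 489516). No exon overlapped the 251 bp shown above. ush (FBgn0003963) spans 2L 476220 to 540560 on the plus strand with 4 annotated starts, and cbt (FBgn0043364) spans 2L 476446 to 479688 on the minus strand with 1.

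The strongest peak of CG11050 ranked 9 in the list and sat in a very short intron. It covered 2L 6612454 to 6612947 with its summit at 6612707 and an IDR signal of 1608. In replicates 1, 2 and 3 its signal was 504.3, 408.6 and 687.4, and its relative signal was 7.60, 7.68 and 10.7, or 8.65 ± 1.74 (SD, n = 3). Replicates 1 and 2 were close on the relative scale and replicate 3 stood above both. The intron is intron 2 of all 3 annotated transcripts and is 140 bp long, so the 494 bp of the peak reached into the exons on both sides. The summit was 67 bp from the upstream exon and 74 bp from the downstream one. CG11050 (FBgn0031836) spans 2L 6611011 to 6617117 on the plus strand, and its 3 starts lay 1696, 1301 and 1020 bp upstream of the summit.

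The CG11050 summit was placed almost identically in every replicate. Its positions were 6612707, 6612706 and 6612706 in replicates 1, 2 and 3, a range of 1 bp. The corresponding range was 30 bp for the strongest peak of ush and cbt and 30 bp for that of Lk6. Over the 3767 IDR peaks found in all 3 replicate lists, where a match is a summit within 100 bp, the median range was 49 bp. Of those peaks, 0.425% had a range of 1 bp or less and 28.3% one of 30 bp or less.

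The strongest peak of Lk6 ranked 18 and lay between the gene's alternative starts. It covered 3R 11760861 to 11761226 with its summit at 11761048 and an IDR signal of 1323. In replicates 1, 2 and 3 its signal was 414.4, 284.7 and 627.1, and its relative signal was 6.25, 5.35 and 9.73, or 7.11 ± 2.31 (SD, n = 3). Replicate 3 was again the highest and replicate 2 the lowest. Lk6 (FBgn0017581) spans 3R 11750931 to 11764457 on the minus strand. The summit was 969 bp upstream of the internal start at 11760079 and 3409 bp downstream of the outer start at 11764457. It lay in intron 1 (3R 11756493 to 11763483, 6991 bp) of the transcript that begins at the outer start. With a promoter window of 1000 bp in place of 500 bp this peak counts as a promoter peak of the internal start.

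All 3 peaks took a larger share of their summed signal from replicate 3 than the median IDR peak did. The IDR signal equalled the sum of the replicates' signals closely, with a median ratio of 1.0 over 3767 peaks (quartiles 0.98 and 1.03), and the ratio was 1.0, 1.0 and 0.998 for ush, CG11050 and Lk6. Replicate 3 gave 44.9% of the sum at ush, 43.0% at CG11050 and 47.3% at Lk6, against a median of 34.6% over those peaks. On the relative scale replicate 3 was the highest at 3 of these 3 peaks, at 43 of the strongest 100 IDR peaks and at 38.7% of the 3767. The libraries' depths are unknown here and their part in this was not tested.

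Each of the 3 peaks stood several times above the other peaks of its region. The strongest peak exceeded the next highest IDR peak of the same replicate by 2.86, 4.81 and 3.18 times in replicates 1, 2 and 3 at ush and cbt, a mean of 3.62 ± 1.05 (SD, n = 3). In replicate 2 the next highest was the intronic peak at 485857 (signal 103.5), and in the others it was the peak upstream of cbt. At CG11050 the ratio was 6.4, 4.51 and 7.9, with a mean of 6.27 ± 1.7. At Lk6 it was 3.49, 2.57 and 7.78, with a mean of 4.62 ± 2.78. The strongest peak was above all other IDR peaks of its region in each replicate, which the choice by height largely fixed. The ratio varied most between replicates at Lk6. The other 19 IDR peaks had signals of 118.5 to 598.1 with a median of 179.3, close to the 175.9 of the whole list. Of these 19, 15 had the same width of 450 bp, while the 3 strongest peaks were 424, 494 and 366 bp wide.

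**Figure D1:**
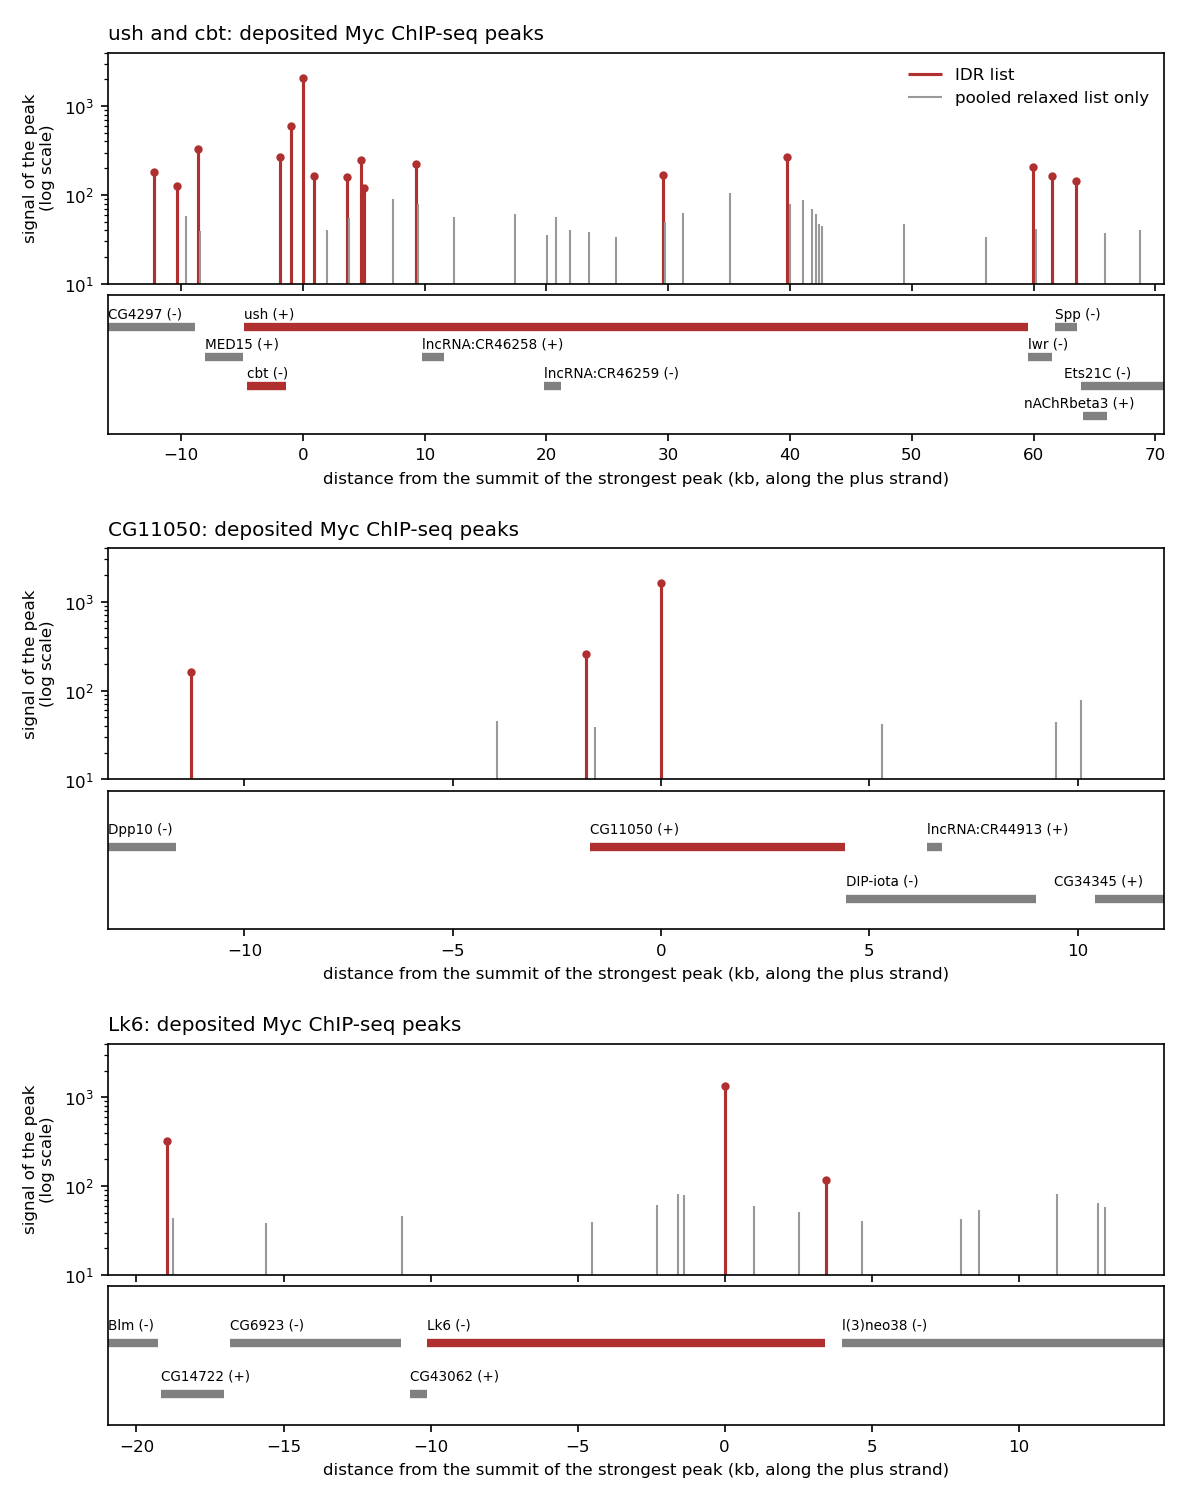
Signal of each deposited peak (log scale) against distance from the summit of the strongest peak (kb) in the 3 regions, with IDR peaks in red with a dot, peaks of the pooled relaxed list alone in grey, and genes with their strand below (the 4 genes in red). The peaks at 0 kb, which were chosen for their height, reach 2067, 1608 and 1323, and every other IDR peak lies at 598.1 or below.

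**Figure D2:**
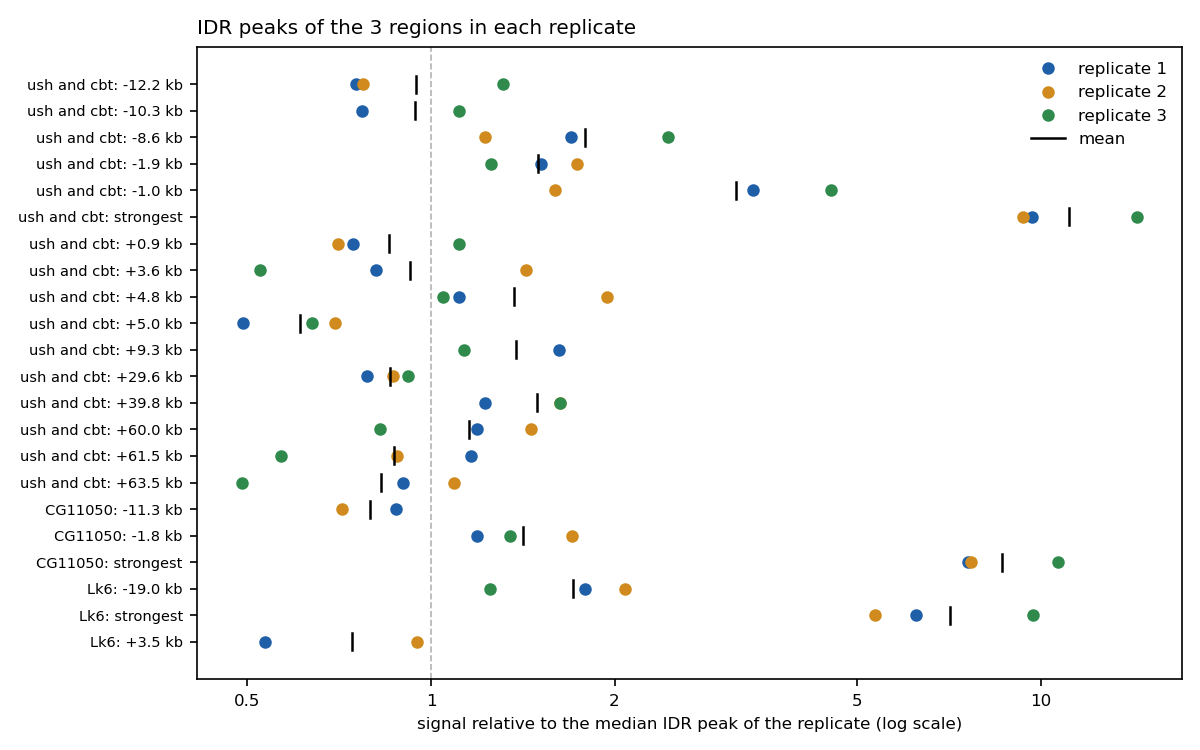
Signal of each of the 22 IDR peaks relative to the median IDR peak of the same replicate (log scale), with 1 coloured dot per replicate, a black line for the mean and a dashed line at 1. Rows name the region and the distance in kb from its strongest peak, and a missing dot means no summit within 100 bp in that replicate. The 3 strongest peaks, which were chosen for their height, lie at 5.35 or above in each replicate, all above the other 19.

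The values just below those that chose the genes did not break off sharply. The next non-promoter peaks after 2067, 1608 and 1323 had signals of 1219, 1217 and 1186. The first of them, at X 12751135 to 12751624, lay 428 bp upstream of lncRNA:CR44619 and within lncRNA:Vinr, 5122 bp from the nearest coding start, that of CG4004. The second, at 2R 13035141 to 13035525, lay 11912 bp from the nearest start, that of CG13323. The last, at 2L 3302003 to 3302411, lay in an intron of CG9663, 952 bp from a start.

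The starts of the same genes carried weaker peaks or none. The intronic peaks were chosen for their height, so this says nothing about binding at starts against introns. Of the 4 genes, 3 had an IDR summit within 500 bp of a start, and ush did not. Of all protein-coding genes, 26% had one. By start, 4 of the 10 starts of the 4 genes had an IDR summit in that window, against 6 of 18 starts of other coding genes and 0 of 4 starts of non-coding genes in the regions. Starts can share a summit, as did the CG11050 starts at 6611011 and 6611406, and those of the other coding genes Blm and CG14722. The relaxed lists, which keep weaker peaks as input for IDR, had a summit in the window of 8, 8 and 7 of the 10 starts in replicates 1, 2 and 3. For the 18 starts of other coding genes in the regions, the relaxed lists had one at 15, 11 and 13. A non-promoter IDR summit in the body or within 10 kb, which the choice of genes fixed for all 4, was found at 20.1% of protein-coding genes.

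At cbt a second peak lay close to the start. Its summit at 2L 480079 was 391 bp upstream, with an IDR signal of 598.1 and signals of 224.1, 84.82 and 292.0 in replicates 1, 2 and 3. Its relative signal was 3.38, 1.595 and 4.53, or 3.17 ± 1.48 (SD, n = 3), with replicate 2 well below the others. Another peak, at 479140 in an untranslated exon of cbt, had an IDR signal of 267.5 and signals of 100.4, 92.17 and 80.75, which were close to each other. The summits of these 3 peaks around the cbt start were 939 and 978 bp apart.

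At the outermost ush start (2L 476220) no list held a summit within 500 bp, and the nearest ones lay more than 2 kb away. The internal ush start at 490835 is shared with lncRNA:CR46258. An IDR summit stood 520 bp upstream of it in an untranslated exon of ush, just outside the window, with an IDR signal of 223.5 and signals of 107.4 and 73.02 in replicates 1 and 3. In replicate 2 no summit lay within 100 bp of that peak, and the nearest, with a signal of 65.67, was 128 bp away. The replicate 2 summit nearest to the start itself was 193 bp upstream of it, with a signal of 54.25. The start at 523466 had only relaxed peaks, with signals of 31.87, 26.73 and 24.76 in replicates 1, 2 and 3. All of these were weak beside the intronic peak, which was chosen for its height.

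At the outermost CG11050 start the IDR summit was 102 bp upstream with a signal of 256.4. In replicates 1, 2 and 3 the signal there was 78.81, 90.67 and 87.07, a narrow spread. The relative signal was 1.42 ± 0.264 (SD, n = 3), against 8.65 at the intronic peak 1798 bp downstream. The start at 6611687, the nearest to the intronic peak, had no IDR summit within 500 bp.

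At the outer Lk6 start the IDR summit was 47 bp upstream with a signal of 118.5, near the lowest of the list (110.3). Replicates 1 and 2 had signals of 35.42 and 50.46 there, and replicate 3 had no matching summit within 100 bp, its nearest being 154 bp upstream of the start with a signal of 20.3. The intronic peak, which was chosen for its height, was 11.7 and 5.64 times as strong in replicates 1 and 2. At the internal Lk6 start, which is the nearer one, no IDR summit lay within 500 bp. The nearest relaxed summits there had signals of 15.15, 29.64 and 19.55 in replicates 1, 2 and 3, at 221, 9 and 397 bp. The outer start, the only Lk6 start with an IDR peak, was the one farther from the strong peak.

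The ush region held the most IDR peaks of the 3 regions. ush had 16 IDR peaks in its body or within 10 kb, with the strongest counted, and no other gene of the 13945 had as many. Without its strongest, which chose the gene, it had 15, a number that 1 other gene had. Around ush the relaxed lists held 56, 47 and 47 peaks in replicates 1, 2 and 3, or 50 ± 5.20 (SD, n = 3). Close summits were counted as separate peaks, and 7, 10 and 5 gaps between neighbouring summits of these lists were under 250 bp. In the IDR list the summits at 485857 and 486100 were 243 bp apart. The ush window is 84.34 kb, against a median of 22.2 kb over all genes. Per 10 kb, the 1.9 IDR peaks of ush were reached by 5.1% of genes. cbt had 10 IDR peaks, 9 without its strongest, all among the 16 of ush. Its 4.3 per 10 kb, with the strongest counted, were reached by no other gene. Its relaxed lists held 19, 16 and 16 peaks in replicates 1, 2 and 3.

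CG11050 and Lk6 each had 3 IDR peaks, or 2 without the strongest, which chose the gene. The number 3 was reached by 24.3% of genes, against a median of 1 over all genes (quartiles 0 and 2). Per 10 kb, with the strongest peak counted, CG11050 had 1.15 and Lk6 0.895, against a median of 0.456. These densities were reached by 20.1% and 31.2% of genes. Around CG11050 the relaxed lists held 9, 7 and 7 peaks in replicates 1, 2 and 3, and around Lk6 24, 18 and 15. Counted in the gene body alone, the IDR peaks were 10 for ush and 1 each for cbt, CG11050 and Lk6. Thus the strongest peak was the sole IDR peak inside CG11050 and inside Lk6, and the 10 of cbt lay almost entirely in its surroundings.

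**Figure D3:**
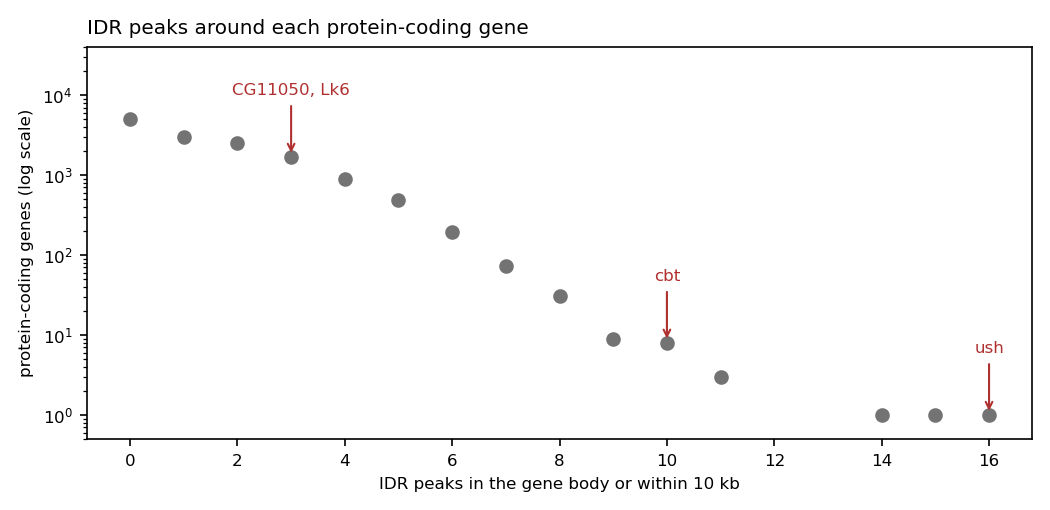
Number of protein-coding genes (log scale) against the number of IDR peaks in the gene body or within 10 kb, over 13945 genes, where each dot is 1 number of peaks. ush stands alone at 16, cbt is among 8 genes with 10, and CG11050 and Lk6 are among 1688 genes with 3.

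Within ush the IDR peaks gathered at the 5′ end, in the part that holds the nested gene cbt and the sequence upstream of it. In the first 15 kb of the gene, 8 summits lay between 479140 and 490315, a span of 11175 bp. Of these 8, 5 were among the strongest 4371 peaks of every replicate. The strongest peak, which chose the gene, is counted in both the 8 and the 5. The rest of the gene held 2, at 510624 and 520833. The peak at 510624 had signals of 52.01, 46.14 and 59.21 in replicates 1, 2 and 3, and that at 520833 had 81.2, 86.43 and 105.1. Gaps of 20309 and 20212 bp without an IDR summit lay on either side of this pair. Over the 3 regions, 14 of the 22 IDR peaks (63.6%) were among the strongest 4371 of every replicate, against 51.3% of all IDR peaks. Without the 3 strongest peaks it was 11 of 19 (57.9%), so the share of the other peaks was near that of the whole list.

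Of 15 coding neighbours in the regions, 7 had an IDR summit within 500 bp of a start, beside 26% of all protein-coding genes. Around ush and cbt these were CG4297 (IDR signal 326.3), lwr (162.6), which encodes the SUMO-conjugating enzyme, and Spp (143.7), a signal peptide peptidase. MED15, a Mediator subunit whose gene lies just upstream of ush, and nAChRbeta3 and Ets21C had none. Near CG11050, Dpp10 had one (162.5), and DIP-iota, CG34345 and Oatp26F did not. Near Lk6, the divergent genes Blm, which encodes a RecQ helicase, and CG14722 shared one (323.2), l(3)neo38 had one (266.9) at a start beyond the region, and CG6923 and CG43062 did not. All 7 signals were below 1323, the lowest of the 3 strongest peaks, which were chosen for their height, so this says nothing about the neighbours. The starts of lncRNA:CR46258, lncRNA:CR46259 and lncRNA:CR44913 had no IDR summit within 500 bp.

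None of the searched words lay within 50 bp of the summit of the 3 strongest peaks. The search took both strands and 13 words, of which CATGTG and CACATG are the same word read on opposite strands. The E-box words were CACGTG, the variants CATGTG and also CAGCTG, and any CANNTG, which contains these, with CACGCG as a related word. Of all IDR peaks, 44.3% had CANNTG, 7.41% CATGTG, 7.12% CAGCTG, 6.02% CACGTG and 5.28% CACGCG within 50 bp. The remaining words were GAGAG of GAGA factor (13.0%), TATCGATA of DREF (4.71%), GGTCACAC, a core promoter word (3.68%), AGATAAG of GATA factors (1.19%), TGACTCA of AP-1 (0.984%), CAGGTAG of Zelda (0.48%) and CCACACCC of Kruppel-like factors (0.343%). A window with none of these words was common: 41.5% of all IDR peaks, 47.0% of the 904 intronic ones and 38 of the strongest 100 had none.

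Farther out, each of the 3 sequences held a single CANNTG within 125 bp of the summit. Positions are from the summit to the centre of the word along the plus strand. At ush and cbt it was CAAGTG at 113.5 bp, at Lk6 CATATG at -52.5 bp, and at CG11050 CAGTTG at -117.5 bp, which lies outside the intron shown. Windows of this width held CANNTG at 74.3% of all IDR peaks and 75.6% of intronic ones. The Lk6 window also held GAGAG 5 times, at -120, -83, 78, 80 and 119 bp, and the copies at 78 and 80 bp overlap. GAGAG was found in 31.2% of all windows of this width and in 39.5% of intronic ones. CACGTG was in none of the 3, against 9.33% of all windows and 6.53% of intronic ones.

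Of the weaker peaks at the starts, the one upstream of cbt had CACGTG at -111.5 bp and CAGGTG at -17.5 bp, with 3 copies of GAGAG or its reverse complement. The CG11050 start had no searched word within 50 bp of the summit, and farther out it had CAGCTG at 75.5 bp, TGACTCA at 63 bp and GGTCACAC at 116.5 bp. The outer Lk6 start had CAAATG at 37.5 bp and CATATG at 63.5 bp. A match is a description of letters and not evidence of binding by a factor.

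The CG11050 intron was poor in G and C. In the 101 bp around the summit, G and C made up 21.8% at CG11050, 30.7% at Lk6 and 33.7% at ush and cbt, against medians of 41.6% over all IDR peaks and 35.6% over intronic ones. A content as low or lower was found at 1.62% of all IDR peaks for CG11050, 17.8% for Lk6 and 26.6% for ush and cbt. The quartiles of all IDR peaks were 33.7% and 48.5%, so ush and cbt sat at the lower quartile and the other 2 below it. The longest runs of A and T in the sequences shown were 13 bp at ush and cbt, 12 bp at CG11050 and 8 bp at Lk6. At the peaks of the starts the content was 32.7% for cbt, slightly below that of the intronic peak, 44.6% for CG11050 and 48.5% for Lk6.

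**Figure D4:**
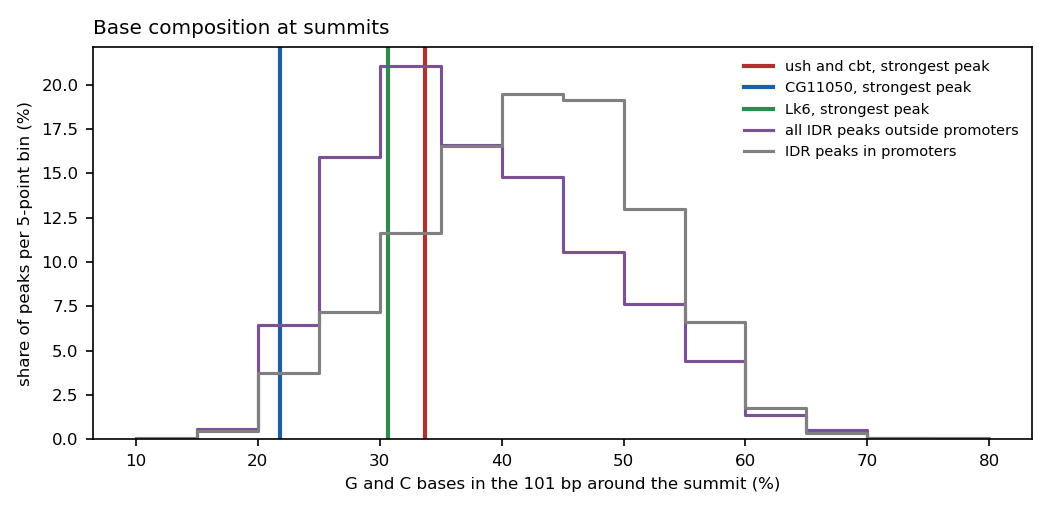
Share of IDR peaks (percent per bin of 5 percentage points) against the G and C content of the 101 bp around the summit (percent), for IDR peaks outside promoters (purple) and in promoters (grey), with vertical lines at the 3 strongest peaks. The lines stand at 21.8%, 30.7% and 33.7%, below the 36.6% median of peaks outside promoters.

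The IDR peaks with the most similar signals over the replicates are named as a description. Likeness was the Euclidean distance between log2 relative signals over 3 replicates, among 3767 peaks, and mainly reflects height. Since the 3 peaks are the highest outside promoters, peaks of like height are bound to be mostly promoter peaks. Nearest to the peak of ush and cbt were those at CG14100 (0.39), px (0.47) and Art3 (0.506), an arginine methyltransferase gene. Nearest to that of CG11050 were Art3 (0.135), px (0.181) and Ugalt (0.448), which encodes a UDP-galactose transporter. Nearest to that of Lk6 were ph-p (0.168), a Polycomb group gene, the intergenic peak nearest to CG4004 (0.197), and PNPase (0.205), an RNA-degrading enzyme of mitochondria.

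Genes related to the roles of ush, cbt and Lk6 were examined as 5 lists, with no test between lists. Counts are of genes with an IDR summit within 500 bp of a start, beside 26% of all protein-coding genes, whose bound members had a median signal of 197.1. Of the GATA factors and their partners, which act with ush, 1 of 9 was bound, the GATA factor gene grn (112.4), while pnr and srp were not. The next list holds zinc-finger factors that are mostly, but not all, Sp and Kruppel-like factors, the wider family of cbt. Of these, 3 of 8 were bound: klu (126.6), Spps (123.1) and btd (111.5). These signals lay between 111.5 and 126.6, against 110.3 for the weakest peak of the list.

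Of the sugar-sensing genes, 4 of 8 were bound. These were bigmax (346.6), which encodes the partner of Mondo, the hexokinase gene Hex-A (335.3), the trehalase gene Treh (139.8) and Mondo itself (115.7). Of the genes of cap binding and the kinases upstream of mammalian Mnk, the list set beside Lk6, 6 of 17 were bound. Among them were eIF4EHP (408.3), a cap-binding repressor of translation, the helicase gene eIF4A (339.9) and eIF4E1 (204.4), a substrate of Lk6. The kinase genes rl, Dsor1, p38a, p38b and p38c were not bound. Of the TGF-beta and Dpp genes, a pathway active in dorsal closure, 3 of 11 were bound: Med (300.7), which encodes the co-Smad, and the receptor genes put (153.0) and sax (130.3). With the IDR peaks limited to those in the strongest 4371 of every replicate, the counts were 0 for the GATA, the Kruppel-like and the TGF-beta lists. They were 2 for sugar sensing and 5 for cap binding, while the share of all genes was 16.1%. With a window of 1000 bp the TGF-beta count was 6, with 28.9% of all genes bound. The highest of all these signals, 408.3, was below each of the 3 strongest intronic peaks. Those were chosen for their height, so this says nothing about the lists.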

How the data were processed

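Myc tagged with green fluorescent protein was profiled by ChIP-seq in 3 biological replicates of embryos (0 to 16 h), which form 1 group; chromatin was sonicated to 200 to 800 bp, per the labels. The peak lists on the dm6 genome were used: 1 relaxed list per replicate, 1 for the pooled replicates (24667 peaks) and 1 thresholded by IDR. Relaxed lists were derived from alignments with a control, and the thresholded list from them, according to the deposited file listing. Signal is a score that the authors' caller assigned, and each summit is an offset within its peak, both used as deposited. Which software aligned reads and called peaks, at which threshold and score scaling, is not given in the sources used here. Lists of replicates 1, 2 and 3 held 29853, 26058 and 25842 peaks. The lists hold no read counts, so depth is unknown and no counting interval is given. The dm3 lists were not used here.

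Genes came from Ensembl release 115 (BDGP6.54) and sequences from the RefSeq Release 6 genome, and all peaks were checked to lie within the arms. Promoters reached 500 bp to either side of coding starts. Classes were taken in the order promoter, coding exon, untranslated exon, intron, intergenic. Summits within 100 bp were matched, and relative signal is signal over the median of matched IDR peaks in that replicate. Words were sought on both strands within 50 and 125 bp of summits. Calculations used Python 3.11.15, pandas 2.3.3 and numpy 2.4.6 and were tested on simulated data. No test was made, since signal chose the genes; spread is SD over the 3 replicates. The genes and lists were chosen with earlier results of these data known.

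Named genes were the 4 genes, genes whose start or body holds an IDR peak of the windows, genes nearest the 3 most similar IDR peaks per strongest peak, the 3 next non-promoter peaks, and the 3 bound genes of each list with the highest signal. The unbound neighbours and list members were named beyond this rule, after their values were seen. Alternatives varied the promoter window, the flank, the matching distance, the word window, the peaks kept and the replicates.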

Additional observations from a re-analysis of the deposited data

How the results depend on the processing

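Of 108 alternative values, 74 stayed within the tolerance set (1.5 times for a count of peaks or genes, 1 SD for a relative signal, equality for the rest), 34 moved and 0 reversed. The relative signal of the strongest peaks without each replicate in turn was 9.517 to 12.03 for ush and cbt, 7.644 to 9.173 for CG11050 and 5.801 to 7.987 for Lk6. In the gene body alone the IDR peaks were 10 for ush and 1 each for cbt, CG11050 and Lk6. With peaks in every top list (the strongest 4371 of each replicate) ush had 10, and without each replicate in turn 11 to 13 and cbt 8; with the stronger part of the list (above its median signal) ush had 9 and cbt 6, and with a flank of 5 kb cbt had 6. With a promoter window of 1000 bp the Lk6 peak counted as 1 promoter peak, and the bound genes were 2 for GATA and FOG and 6 for TGF-beta and Dpp (28.9% of all genes). A single CANNTG (1 copy) appeared within 150 bp at all 3 peaks and within 100 bp at Lk6. With peaks in every top list the bound genes were 0 for GATA and FOG, 0 for Sp and Kruppel-like, 2 for sugar sensing and 0 for TGF-beta and Dpp (16.1% of all genes), and with that stronger part 0, 0, 2 and 1 in that order (15.2%). Without each replicate in turn they were 0 to 0, 0 to 1, 2 to 3 and 0 to 1 (17.5% to 19.1%), against 26.0% of all genes in the main setting. The Mnk and cap binding list, with 6 bound in the main setting, stayed within the tolerance. It had 5 bound with peaks in every top list, 4 with that stronger part and 5 without each replicate in turn. Settings that drop replicates or weaker peaks changed which peaks were kept, and the cause of the other moves was not tested. No paired analysis was possible because all samples form 1 group. With 3 replicates of unknown depth, only the spread between replicates limits these values, and small differences in signal cannot be judged.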
